A study of Homo sapiens with 21 samples.

Results

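The gene module described here holds 67 protein-coding genes whose messenger RNA was lowest with the short hairpin RNA (shRNA) against B4GALNT1. Genes were selected on their measured level in all 7 groups: the mean log2(FPKM + 1) with that hairpin had to lie at least 0.5 below the mean of each of the 6 other groups, and the mean had to reach 5 FPKM in some group. FPKM is the number of fragments per kilobase of exon, scaled to a fixed library size. Of 27142 genes in the table, 9276 were protein-coding and reached 5 FPKM, and 73 of these met the rule. The module leaves out 8 genes by name, of which 6 met the rule (TXNIP, SNX12, SNX17, RFXANK, FGFRL1 and EIF2AK1). The other left-out genes, LMNB2 and the target B4GALNT1, did not meet it. Of the 3 genes given as markers of the module, MCRIP1 and TMEM9B met the rule and CENPBD1 did not.

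The study sequenced mRNA of HEK 293FT cells, a human embryonic kidney line carrying the SV40 large T antigen, to ask how specific RfxCasR and matching hairpins are. Cells received plasmids by a lipid reagent, and RNA was taken 48 h later. There were 7 groups of 3 libraries: shRNA B4GALNT1, shRNA ANXA4, RfxCasR with a B4GALNT1 guide RNA (gRNA), RfxCasR with an ANXA4 array, and 3 non-targeting (NT) controls, namely shRNA NT, RfxCasR with an NT gRNA and RfxCasR with an NT array. All groups carry an expression plasmid, none is untransfected, and each target was hit by 1 hairpin, so a hairpin and its target cannot be told apart within the shRNA groups.

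An shRNA is cut by DICER into a small RNA that Argonaute proteins load as a guide. The guide can silence a perfectly matched mRNA by cleavage, and, like a microRNA, it can also lower other mRNAs whose 3′ untranslated region (3′ UTR) pairs with its seed, bases 2 to 7. RfxCasR, a CRISPR enzyme, cuts RNA that its guide matches and needs no Argonaute. B4GALNT1 is the glycosyltransferase that makes the gangliosides GM2 and GD2.

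Sequencing depth lay between 21.4 and 30.7 M reads for the 15 libraries without arrays and between 34.7 and 39.5 M for the 6 with arrays. B4GALNT1 had 2.96, 2.79 and 2.59 FPKM with its hairpin, against 4.08 ± 0.179 FPKM (SD, n = 3) with shRNA NT, a reduction of 31.8% (-0.43 log2, limma adjusted p = 0.000131). With its RfxCasR guide it had 2.21 ± 0.167 FPKM, against 5.89 ± 0.907 FPKM with the NT gRNA (SD, n = 3 each), a reduction of 62.4% (-1.09 log2, limma adjusted p = 1.67e-07). An exact permutation test, two-sided, gave p = 0.1 for each, the smallest that 3 libraries against 3 allow. ANXA4 went against the labels of the arrays. Libraries labelled ANXA4 array had 7.03 ± 0.24 FPKM of it, and those labelled NT array had 3.03 ± 0.427 FPKM (SD, n = 3 each). ANXA4 was at 7.04 ± 0.416 FPKM with the NT gRNA and 7.24 ± 0.314 FPKM with the B4GALNT1 gRNA (SD, n = 3 each). Array groups are named throughout by the labels of the FPKM columns. Marker genes of the kidney line summed to 811 to 825 FPKM with shRNA B4GALNT1 and 624 to 646 FPKM with shRNA NT. These sums were 792 to 823 FPKM with shRNA ANXA4, 844 to 866 with the B4GALNT1 gRNA and 869 to 889 with the NT gRNA. They were 898 to 955 FPKM in the libraries labelled ANXA4 array and 919 to 952 in those labelled NT array. The lowest sums were thus those of shRNA NT. Markers of blood, fibroblasts and endothelium (12 genes, with CD3E and HBB at 0 in all 3 libraries of shRNA B4GALNT1 and PTPRC and HBB in all 3 of shRNA NT) summed to 12.9 to 14.8 FPKM with shRNA B4GALNT1 and 15 to 15.8 FPKM with shRNA NT. The part of these differences in the results below was not tested. In bulk samples, fewer cells that express a gene and less RNA per cell cannot be told apart.

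The same rule was applied to every group in both directions, with no gene left out. Genes lowest in one group numbered 73 for shRNA B4GALNT1, 166 for shRNA ANXA4, 115 for shRNA NT, 2 for the libraries labelled ANXA4 array and 0 for each of RfxCasR B4GALNT1 gRNA, NT gRNA and NT array. Genes highest in one group numbered 0 for shRNA B4GALNT1, 28 for shRNA ANXA4, 18 for shRNA NT and 2 for the NT array. The B4GALNT1 hairpin thus had a set of lowest genes and no set of highest genes, and each of the 3 hairpins, the NT one included, had lowest genes of its own.

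**Figure D1:**
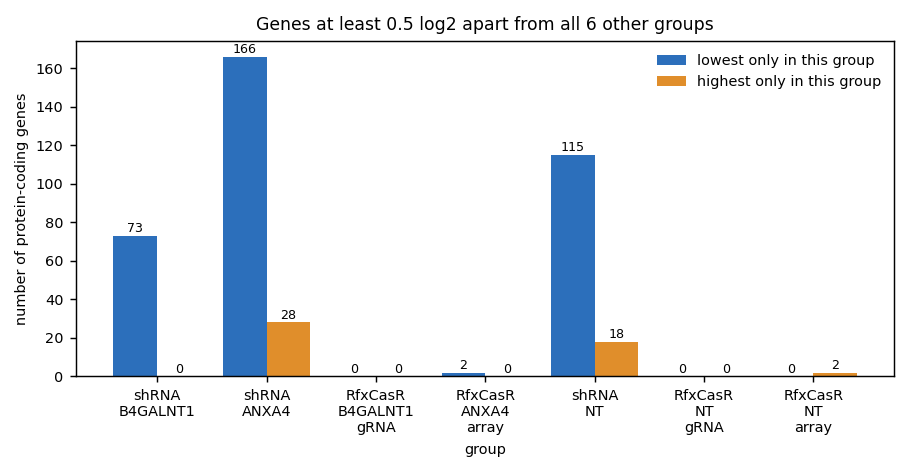
Number of protein-coding genes (y axis) whose group mean lies at least 0.5 log2 below (blue) or above (orange) all 6 other group means, for each group (x axis). The 3 shRNA groups have 73, 166 and 115 lowest genes, and no RfxCasR group has more than 2.

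The 3′ UTRs of the module shared short words that the rule did not use. All 4096 hexamers were counted in the 3′ UTR of 1 GENCODE transcript per gene (release 29, GRCh38), sense strand, for the 67 genes and for 9141 expressed protein-coding genes with a 3′ UTR. The hexamer with the largest difference was GGTCAG, found in 40 of the 67 genes (59.7%) and in 2510 of the 9141 (27.5%). Next came GTCAGG, which overlaps it, at 52.2% and 26.2%. Over all hexamers the difference between the shares had a median of 0.864 percentage points and a largest value of 32.2 points. The hexamer was picked as the largest of 4096 differences, so it is a description and has no test. A match says that the letters are there, not that a protein or small RNA binds.

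Sites in 8 members that are described below are shown first, to let the flanking bases be compared. These members were picked after their values were seen, and others with gaps as large, such as FAM71E1, ZNF853, NAA20, GATAD2A and FAIM, hold the word as well. Capitals mark the hexamer, each line is the sense strand of the 3′ UTR, 5′ to 3′, and coordinates are GRCh38.
MCRIP1 (chr17:81822816-81822845, minus strand): tgtccttgaagtGGTCAGgatacaggacaa
TAF9B (chrX:78130759-78130788, minus strand): caggtagttttgGGTCAGttatattcagtt
PI4K2A, site a (chr10:97675143-97675172, plus strand): caccttgcgattGGTCAGtcaacctcagaa
PI4K2A, site b (chr10:97675266-97675295, plus strand): gtgcagccctctGGTCAGctggtccaggct
TWNK, site a (chr10:100994010-100994039, plus strand): taggaatgagcaGGTCAGattcaaggcagt
TWNK, site b (chr10:100994030-100994059, plus strand): tcaaggcagtgaGGTCAGgccgcatgaacc
POLE3 (chr9:113408373-113408402, minus strand): ggctttgcttatGGTCAGcctatgtttgat
C14orf1, site a (chr14:75650932-75650961, minus strand): tttagaccttctGGTCAGctgtatttgtgt
C14orf1, site b (chr14:75650753-75650782, minus strand): gctcatgacacaGGTCAGcctggctgcctc
ATP6V0E1 (chr5:173034754-173034783, plus strand): ctccagtggggtGGTCAGtaggagagcacg
GNPDA1 (chr5:142001503-142001532, minus strand): agcagtctctttGGTCAGtaacaagtgcaa

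The mRNA of B4GALNT1 itself holds the hexamer 5 times, 3 of them in its coding sequence and 2 in its 3′ UTR. These are shown because B4GALNT1 is the gene that the hairpin was made against. Where the hairpin pairs with this mRNA is not known here, since its sequence was not used.
B4GALNT1, coding site a (chr12:57631924-57631953, minus strand): cgcacacatcccGGTCAGgatcaaggagca
B4GALNT1, coding site b (chr12:57630478-57630507, minus strand): caggcagcttctGGTCAGgaggtataccag
B4GALNT1, coding site c (chr12:57630243-57630272, minus strand): ctcactggagagGGTCAGgcagatctcacc
B4GALNT1, 3′ UTR site a (chr12:57626021-57626050, minus strand): tccacatgatgaGGTCAGacccacacggtg
B4GALNT1, 3′ UTR site b (chr12:57625993-57626022, minus strand): tgcaaatctttgGGTCAGtgagctcctgga

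In the 67 genes the 3′ UTRs held 62 copies of GGTCAG, and 16 genes had 2 or more. In coding sequence the hexamer was in 19.4% of the module and 28.0% of all expressed genes, and in the 5′ UTR it was in 8.96% of the module and 5.21% of all. Among genes lowest with shRNA ANXA4, 46 of 164 had it in the 3′ UTR (28.0%), and among genes lowest with shRNA NT, 29 of 115 (25.2%), which is near the share of all genes. The hexamer was picked for its share in the module, and no hexamer was picked for those other sets. Of the 6 genes left out by name that met the rule, 2 had GGTCAG in the 3′ UTR (33.3%). Longer forms contain the picked hexamer, so their shares partly follow from that choice. TGGTCAG was in 21 genes (31.3%, against 10.9% of all), and TGGTCAGT in 10 genes (14.9%, against 2.64% of all). GGTCAGC was in 10.4% of the module and 7.45% of all, and CGGTCAG in 0% of the module and 1.91% of all.

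**Figure D2:**
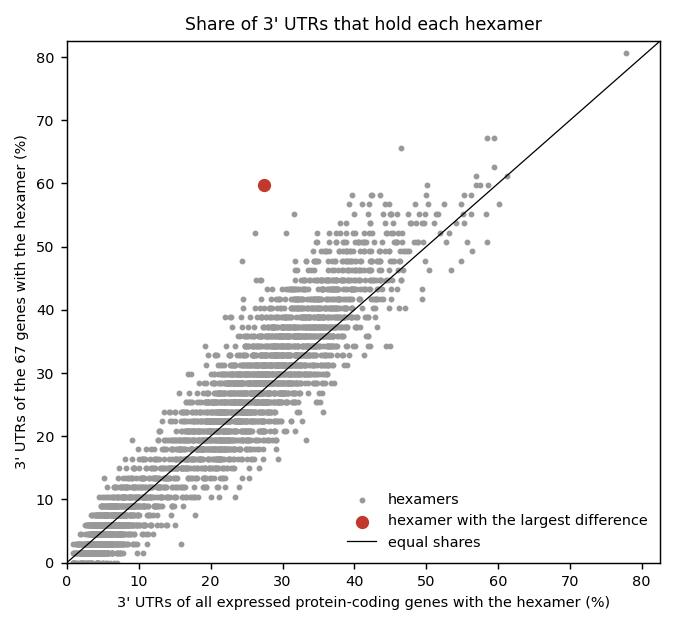
Each point is 1 of 4096 hexamers, with the share of 3′ UTRs holding it among all 9141 expressed protein-coding genes (x axis, percent) and among the 67 genes (y axis, percent). The line marks equal shares, and the hexamer with the largest difference (red) lies at 59.7% of the module and 27.5% of all genes.

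The module's 3′ UTRs were longer than those of other genes, with a median of 1214 bases against 884, and somewhat richer in G and C, with a median of 45.4% against 42.5%. A longer UTR holds any word more often, so the shares were also taken by length. From 1 to 352 bases the hexamer was in 23.1% of the module's genes and 3.72% of all. From 353 to 884 bases it was in 45.5% of the module and 15.5% of all, and from 885 to 2037 bases in 71.4% of the module and 32.0% of all. From 2038 bases up it was in 80.0% of the module and 58.7% of all. The module had the higher share in each of the 4 length classes, which held 13, 11, 28 and 15 of its genes. The hexamer was picked for its share in these same genes, so the higher shares partly follow from that choice.

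Within the module the gap is the distance on the log2(FPKM + 1) scale between the shRNA B4GALNT1 mean and the lowest of the other means. The median gap was 0.60 in the 27 genes with no hexamer, 0.65 in the 24 genes with 1 and 0.59 in the 16 genes with 2 or more. The rule cut the gap off at 0.5, and it was under 0.6 in 33 of the 67 genes. These medians therefore cannot decide whether the gap follows the number of hexamers. Of the 25 genes with the largest gaps, 17 had the hexamer. JOSD2, FKBP4 and TMEM9B are leading genes without it.

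Genes outside the module showed a smaller shift of the same sign. In shRNA B4GALNT1 minus shRNA NT, the median difference was -0.01 log2 for 6600 expressed genes with no hexamer in the 3′ UTR, -0.07 for 1626 genes with 1 and -0.11 for 840 genes with 2 or more. The middle 50% of each class was wide, from -0.27 to 0.08 in the last. The medians in the same order were 0.02, -0.01 and -0.01 in shRNA ANXA4 minus shRNA NT, and all lay between -0.01 and 0.01 in both RfxCasR comparisons. They were -0.03, -0.04 and -0.04 in NT gRNA minus shRNA NT, which holds no B4GALNT1 hairpin but shares the shRNA NT libraries. Genes with the hexamer had the lower median in each of the 4 length classes both for shRNA B4GALNT1 and for shRNA ANXA4 against shRNA NT. For shRNA B4GALNT1, from 885 to 2037 bases the median was -0.11 with the hexamer (710 genes) and -0.00 without it (1546 genes). From 2038 bases up it was -0.06 with the hexamer and 0.01 without it. For shRNA ANXA4 the same classes had medians of -0.01 with the hexamer and 0.02 without it, and of -0.00 with it and 0.04 without it. For NT gRNA minus shRNA NT they were -0.03 with the hexamer and -0.03 without it, and -0.06 with it and -0.06 without it. Within each comparison these are medians over genes of the same 6 libraries, and they have no test.

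**Figure D3:**
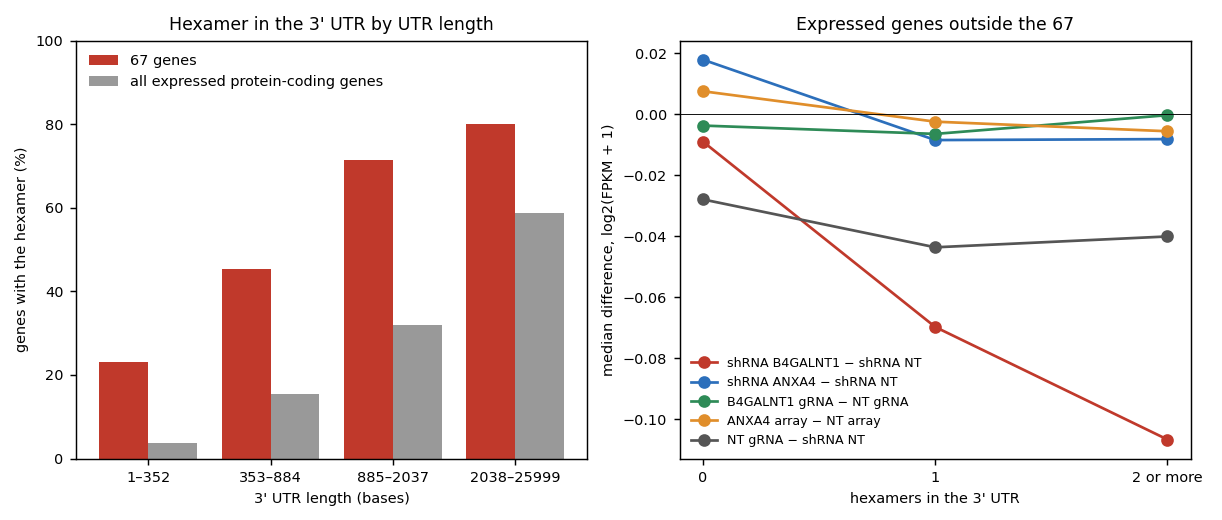
Left, share of genes with the hexamer in the 3′ UTR (y axis, percent) by 3′ UTR length (x axis, bases), for the 67 genes (red) and all expressed protein-coding genes (grey). Right, median difference in log2(FPKM + 1) (y axis) for expressed genes outside the module with 0, 1 or 2 or more hexamers (x axis) in 5 comparisons, where the shRNA B4GALNT1 line reaches -0.11, the NT gRNA minus shRNA NT line lies between -0.04 and -0.03 and the others stay within 0.02 of 0.

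The complement of the hexamer, CUGACC, was looked up in 2370 human mature miRNA names of RefSeq (GRCh38.p14). None had it at bases 2 to 7. It began at base 1 in miR-192-5p and at base 3 in miR-4256 and miR-11181-5p. The hexamer share did not depend on the transcript taken: with the longest matched transcript it was again 59.7% in the module, against 27.5% of all genes, and it was 62.9% in the 62 members that share no reads or copies with another entry.

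By the rule, every member was lowest with shRNA B4GALNT1, and the following levels are therefore descriptive. In all 67 genes the 3 shRNA B4GALNT1 libraries lay below all 18 others, as they did in 6.46% of the 9276 expressed protein-coding genes. The gap ran between 0.50 and 1.32 with a median of 0.60, and it was at least 0.7 in 19 genes and under 0.6 in 33. At the median gene, the shRNA B4GALNT1 level was 54.2% of that with shRNA ANXA4, 57% of that with the B4GALNT1 gRNA, 53.2% of that in the libraries labelled ANXA4 array, 55.9% of that with shRNA NT, 56.1% of that with the NT gRNA and 52.6% of that with the NT array. In 4 genes it was at 50% or less of every other group. The typical member was thus at a little over 50%, evenly against hairpins and RfxCasR groups. The means of the 6 other groups spanned a median of 0.33 log2 in the module, against 0.48 over all expressed genes. The rule used these same 6 means, so this difference may come from the selection and is no separate trait of the module.

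**Figure D4:**
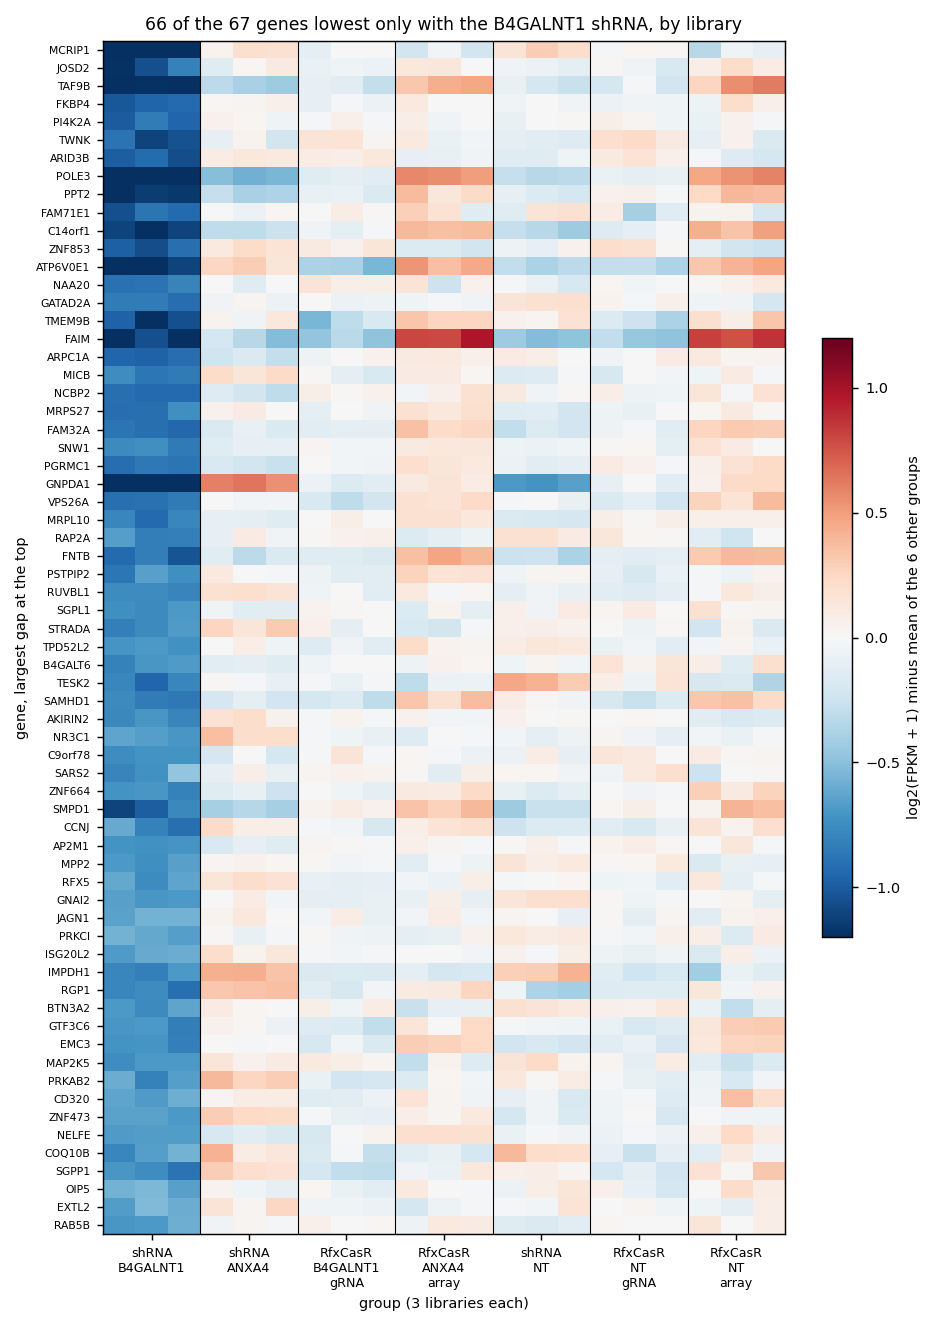
Each row is 1 gene, largest gap at the top, for 66 of the 67 genes, and each column a library, with colour for log2(FPKM + 1) minus the mean of the 6 other groups (blue lower, red higher, colours end at 1.2 in either direction). The 3 shRNA B4GALNT1 columns are blue throughout, and both array groups are red for POLE3, FAIM and TAF9B.

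Regulators of transcription and chromatin made up 15 of the 67 genes, and MCRIP1 led them and the module. MCRIP1 (NM_207368, hg19 chromosome 17, 79780237 to 79791170, minus strand) is an ERK substrate that binds the corepressor CTBP. It had 42.5, 40.8 and 48.9 FPKM with shRNA B4GALNT1, against 138, 153 and 144 FPKM with shRNA NT. Its other group means were 137 ± 7.96 FPKM with shRNA ANXA4, 120 ± 5.39 with the B4GALNT1 gRNA, 111 ± 8.99 in the libraries labelled ANXA4 array, 125 ± 2.02 with the NT gRNA and 111 ± 11.3 with the NT array (SD, n = 3 each). Its highest shRNA B4GALNT1 library, 48.9 FPKM, was below the lowest of the 18 others, 98.3 FPKM. With a gap of 1.32 it was the only member more than 1 log2 below every other group.

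TAF9B, a TATA-binding-protein-associated factor, had 6.22, 6.56 and 5.21 FPKM with shRNA B4GALNT1, and 15.2, 13.9 and 13.3 FPKM with shRNA NT. It was higher in both array groups than elsewhere, with 21.9 ± 1.12 FPKM in the libraries labelled ANXA4 array and 23.2 ± 3.18 FPKM in those labelled NT array. POLE3, a histone-fold subunit of DNA polymerase epsilon and of a chromatin remodeller, had 27.7, 26.9 and 29.6 FPKM with shRNA B4GALNT1, against 62.3, 60.1 and 60.8 FPKM with shRNA NT. Its array groups were also the highest, at 111 ± 2.94 FPKM in the libraries labelled ANXA4 array and 110 ± 5.01 FPKM in those labelled NT array. ARID3B, an AT-rich DNA-binding protein, had 8.99, 9.46 and 8.5 FPKM with shRNA B4GALNT1, and 16.2 to 21.2 FPKM in the other 18 libraries. GATAD2A is a subunit of the nucleosome remodelling and deacetylase complex and was at 15.3, 15.3 and 14.5 FPKM with shRNA B4GALNT1, against 32 ± 0.474 FPKM with shRNA NT (SD, n = 3). SNW1 and ZNF853, a splicing and transcription coregulator and a zinc-finger protein, had gaps of 0.67 and 0.79. The remaining transcription and chromatin genes were RUVBL1, NR3C1 (the glucocorticoid receptor), RFX5, AKIRIN2, NELFE, GTF3C6, ZNF664 and OIP5, which were named for their roles after their values were seen. Over all 15, the shRNA B4GALNT1 level was 30.4% to 64.6% of that with shRNA NT.

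Lipid enzymes numbered 9, among them SGPL1 (sphingosine-1-phosphate lyase), SGPP1 (sphingosine-1-phosphate phosphatase), SMPD1 (acid sphingomyelinase) and B4GALT6 (a lactosylceramide synthase), a group also named after its values were seen. Like B4GALNT1, B4GALT6 acts in glycosphingolipid synthesis. It had 3.95, 4.37 and 4.42 FPKM with shRNA B4GALNT1, and 6.85 to 8.9 FPKM in the other 18 libraries. PI4K2A, which makes phosphatidylinositol 4-phosphate on Golgi and endosome membranes, had 7.63, 8.65 and 7.95 FPKM with shRNA B4GALNT1, against 15.2, 16.3 and 16.4 FPKM with shRNA NT. Its 18 other libraries kept to a narrow range of 15.2 to 17.3 FPKM, so its low level stood against an even one elsewhere. PPT2, a lysosomal thioesterase, had 14.5, 15.4 and 15.1 FPKM with shRNA B4GALNT1, against 32.6, 31.2 and 30.2 FPKM with shRNA NT. Its reads are uncertain, since a read-through gene overlaps it on the same strand and the table lists it in 8 copies. C14orf1, the human counterpart of the yeast sterol synthesis scaffold ERG28, and PGRMC1, a heme-binding membrane protein, had gaps of 0.79 and 0.66. FNTB, the beta subunit of farnesyltransferase, completes the group. Over the 9 genes, the shRNA B4GALNT1 level was 47.8% to 60.9% of that with shRNA NT.

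Genes of endosomes, lysosomes and membrane traffic numbered 11. ATP6V0E1, a subunit of the proton pump that acidifies these organelles, had 28.8, 26.3 and 31.2 FPKM with shRNA B4GALNT1, against 55.7, 52.5 and 54.8 FPKM with shRNA NT. Its level was 50.3 ± 3.33 FPKM with the B4GALNT1 gRNA and 55 ± 1.83 FPKM with the NT gRNA, close to shRNA NT, and 80.5 ± 4.12 FPKM with shRNA ANXA4 (SD, n = 3 each). TMEM9B, an endolysosomal membrane protein, had 4.34, 3.55 and 4.03 FPKM with shRNA B4GALNT1, against 9.83, 9.71 and 10.8 FPKM with shRNA NT. Its 18 other libraries spread from 6.16 to 12.2 FPKM, and the low end was in the single-guide groups. AP2M1, the medium chain of the clathrin adaptor AP2, was the most abundant member, at 91.1, 90.7 and 91.6 FPKM with shRNA B4GALNT1 and 132 to 166 FPKM in the 18 others. RAB5B, an early endosome GTPase, had the smallest gap of the module, 0.50. Also in the group were VPS26A (retromer), RGP1, JAGN1, EMC3, TPD52L2 and CD320 (the receptor for vitamin B12 bound to transcobalamin). Over the 11 genes, the shRNA B4GALNT1 level was 39.3% to 69.0% of that with shRNA NT.

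**Figure D5:**
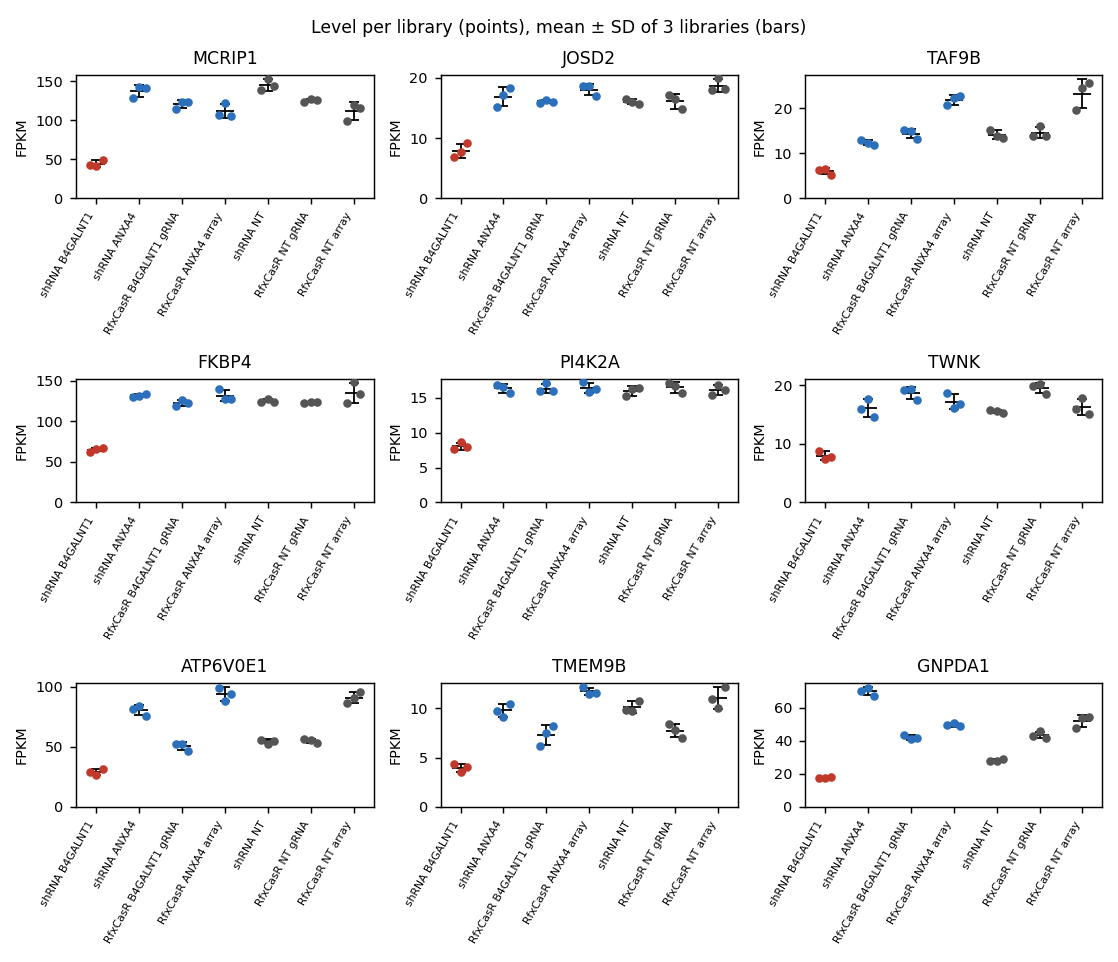
FPKM per library (points) with the mean and SD of 3 libraries (bars) for 9 genes of the module, by group (x axis). The shRNA B4GALNT1 libraries (red) are lowest in each panel, as the rule requires, and the other groups (blue, non-targeting in grey) are level for PI4K2A and FKBP4 but range between 27.5 and 72.1 FPKM for GNPDA1.

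Mitochondrial genes numbered 5, led by TWNK, the helicase of mitochondrial DNA replication. TWNK had 8.78, 7.39 and 7.77 FPKM with shRNA B4GALNT1, against 15.8, 15.5 and 15.3 FPKM with shRNA NT. MRPS27 and MRPL10, subunits of the small and large mitochondrial ribosome, had gaps of 0.68 and 0.64, and SARS2 (mitochondrial seryl-tRNA synthetase) and COQ10B (a coenzyme Q binding protein) were at 60.2% and 46.8% of their shRNA NT level. Proteins of folding, modification, cytoskeleton and cell death numbered 6. FKBP4, a cochaperone of HSP90, had 62.7, 65.5 and 66.5 FPKM with shRNA B4GALNT1, against 119 to 148 FPKM in the 18 others. The means of its other groups all lay between 123 and 135 FPKM. JOSD2, a deubiquitinase, had 6.88, 7.62 and 9.2 FPKM with shRNA B4GALNT1, against 14.8 to 19.9 FPKM in the 18 others. NAA20, the catalytic subunit of the N-terminal acetyltransferase NatB, and ARPC1A, a subunit of the actin-nucleating Arp2/3 complex, had gaps of 0.77 and 0.71, and PSTPIP2 was at 51.8% of its shRNA NT level. FAIM, an inhibitor of Fas-induced cell death, had 8.55, 9.75 and 8.18 FPKM with shRNA B4GALNT1 and 15.1 ± 0.515 FPKM with shRNA NT (SD, n = 3). FAIM differed most among the other groups, by 1.33 log2, with 39.5 ± 2.81 FPKM in the libraries labelled ANXA4 array and 38.4 ± 1.41 FPKM in those labelled NT array.

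Signalling genes numbered 9, the kinases PRKCI, MAP2K5 and TESK2, the AMPK subunit PRKAB2, the LKB1 partner STRADA, the G proteins RAP2A and GNAI2, the cyclin CCNJ and the scaffold MPP2. Their shRNA B4GALNT1 level was 34.2% to 63.4% of that with shRNA NT. TESK2 had the lowest of these shares, with 2.49, 2.1 and 2.48 FPKM with shRNA B4GALNT1 and 7.28, 7 and 6.41 FPKM with shRNA NT. RNA-handling genes numbered 5 (NCBP2, ISG20L2, ZNF473, C9orf78 and FAM32A), and NCBP2, the small subunit of the nuclear cap-binding complex, had 14.5, 14.2 and 14.2 FPKM with shRNA B4GALNT1 and 22.5 to 32 FPKM in the 18 others. FAM32A, found in the spliceosome, had a gap of 0.68. Immune genes numbered 3 (MICB, BTN3A2 and SAMHD1, the last a dNTP hydrolase that restricts viruses), and MICB, a stress-induced ligand of the receptor NKG2D, was at 5.56, 5.05 and 5.11 FPKM with shRNA B4GALNT1, against 8.64 to 11.9 FPKM in the 18 others. Genes of nucleotide and sugar metabolism numbered 3 (IMPDH1, GNPDA1 and EXTL2). GNPDA1, which turns glucosamine 6-phosphate into fructose 6-phosphate, had 17.3, 17.2 and 17.8 FPKM with shRNA B4GALNT1, against 28.0, 27.5 and 28.7 FPKM with shRNA NT. FAM71E1, with a gap of 0.80, was given no role.

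The threshold cut a continuous run of genes. Just inside it were RAB5B, EXTL2 and OIP5, with gaps of 0.50, 0.50 and 0.51. Just outside were FAF2, ATP6V1G1 and FTSJ1, with gaps of 0.50, 0.49 and 0.49. CENPBD1, a protein with a centromere-protein-B type DNA-binding domain, had 4.43, 4.51 and 4.67 FPKM with shRNA B4GALNT1, against 11.2, 11.4 and 11.1 FPKM with shRNA NT. It fell outside because its level with shRNA ANXA4 was also low, at 6.2, 6.29 and 5.82 FPKM, which left a gap of 0.36. Without the array libraries, whose ANXA4 level went against the labels, 92 genes met the rule, and all 67 were among them. With fewer groups to lie below, the gap is easier to reach, so keeping the 67 does not bear on the labels.

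The members were spread over the genome. Chromosome 3 held 8 of them (11.9%, against 5.28% of all expressed protein-coding genes) and chromosome 19 held 7 (10.4%, against 6.59%). A few were neighbours within 1000 kb: NELFE, PPT2 and MICB on chromosome 6, JAGN1 and EMC3 at 68.3 kb on chromosome 3, and JOSD2, FAM71E1 and ZNF473 on chromosome 19. Exon length had a median of 2314 bases in the module, against 2768 over all, and the highest group mean had a median of 24.2 FPKM, against 19.2. NELFE and MICB, with 6 and 8 copies in the table, and FNTB and ZNF664, which overlap read-through genes, have reads that cannot be assigned with certainty.

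Levels of the module were also compared between RfxCasR B4GALNT1 gRNA, with B4GALNT1 itself lowered, and NT gRNA. No hairpin library enters, but the rule required both groups to lie at least 0.5 log2 above shRNA B4GALNT1. Genes that were as low with the guide as with the hairpin could therefore not be members, and the members' values in this comparison are a description. Over all 13679 genes tested, limma called 1 gene, B4GALNT1 (0.00731%), and 0 of the 67 members were called. An unadjusted limma p under 0.05 was found for 2 of the 67 members and for 523 of the 13679 genes. The authors' deposited table called 0 of the 67 and 2 genes in all (0.0125%). The members' differences had a median of -0.02 log2 and ranged between -0.14 for PPT2 and 0.19 for FAM71E1. The lowest bound of their 95% intervals was -0.27.

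The libraries of both groups overlapped for MCRIP1, TMEM9B and JOSD2. MCRIP1 had 114, 124 and 124 FPKM with the B4GALNT1 gRNA, against 123, 127 and 125 FPKM with the NT gRNA (-0.05 log2, 95% interval -0.21 to 0.10). TMEM9B had 6.16, 7.5 and 8.24 FPKM with the B4GALNT1 gRNA, against 8.37, 7.81 and 7.03 FPKM with the NT gRNA (-0.08 log2, 95% interval -0.26 to 0.11). JOSD2 was at 16.1 ± 0.209 FPKM with the B4GALNT1 gRNA and 16.1 ± 1.23 FPKM with the NT gRNA (SD, n = 3 each; 0.00 log2, 95% interval -0.16 to 0.17). The libraries of the B4GALNT1 gRNA and NT gRNA groups did not overlap in 7 members with lower and 2 members with higher values, against a background of 6.5% and 5.34% of all genes.

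With the hairpin against ANXA4 the members moved in both directions. Limma called 30 of the 67 between shRNA ANXA4 and shRNA NT, 18 higher and 12 lower, where 51.8% of all genes tested were called, 25.6% higher and 26.3% lower. The median difference was 0.03 log2 over the members and -0.01 over all genes. The share of members called was thus near the background. The shRNA NT libraries are also the control of the B4GALNT1 hairpin. The authors' deposited table called 35 of the 67, 21 higher and 14 lower, where it called 45.1% of its genes.

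GNPDA1 rose most among them. It had 70.4, 72.1 and 67.3 FPKM with shRNA ANXA4, against 28.0, 27.5 and 28.7 FPKM with shRNA NT (1.29 log2, SE 0.0465, limma adjusted p = 7.55e-14). RGP1, a subunit of the exchange factor for the GTPase RAB6, had 10.8 ± 0.19 FPKM with shRNA ANXA4 and 6.72 ± 1.1 FPKM with shRNA NT (SD, n = 3 each; 0.62 log2, limma adjusted p = 1.89e-06). ATP6V0E1 rose by 0.56 log2 with shRNA ANXA4 (limma adjusted p = 3.24e-07) and ZNF473, which acts in histone mRNA processing, by 0.40 (limma adjusted p = 4.25e-06). These 4 genes were therefore lower than shRNA NT with one hairpin, as the rule fixed, and higher with the other. Of those that fell with shRNA ANXA4, ARPC1A had 68 ± 2.89 FPKM, against 83.5 ± 3 FPKM with shRNA NT (SD, n = 3 each; -0.29 log2, limma adjusted p = 1.17e-05), and NCBP2 and POLE3 fell by 0.25 and 0.23 log2. By role, 6 of the 15 transcription and chromatin genes rose and 2 fell, 5 of the 11 traffic genes rose and 1 fell, and 0 of the 9 lipid genes rose and 3 fell. Of the 9 signalling genes, 3 rose and 3 fell, and of the 5 RNA-handling and the 3 immune genes, 1 rose and 1 fell in each. Of the 5 mitochondrial and the 3 nucleotide and sugar genes, 1 rose in each, and of the 6 folding and cytoskeleton genes 1 fell. Over all genes 25.6% were called higher and 26.3% lower, and no role was tested against these shares. MCRIP1 and TMEM9B were not called, at 137 ± 7.96 and 9.79 ± 0.641 FPKM with shRNA ANXA4 and 145 ± 7.19 and 10.1 ± 0.601 FPKM with shRNA NT (SD, n = 3 each).

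Between the controls, RfxCasR NT gRNA and shRNA NT, 26 of the 67 members were called, 15 higher and 11 lower with the NT gRNA, where 48.9% of all genes were called. GNPDA1 had 42.9, 45.7 and 41.8 FPKM with the NT gRNA, against 28.0, 27.5 and 28.7 FPKM with shRNA NT (0.61 log2, SE 0.0465, limma adjusted p = 5.48e-09). IMPDH1, an enzyme of guanine nucleotide synthesis, moved the other way, with 25.9, 24.0 and 24.9 FPKM with the NT gRNA and 35.0, 35.3 and 38.4 FPKM with shRNA NT (-0.52 log2, SE 0.0649, limma adjusted p = 2.73e-06). MRPL10, C14orf1 and POLE3 were higher with the NT gRNA by 0.24, 0.24 and 0.22 log2, and TMEM9B was lower, at -0.35 log2 (limma adjusted p = 0.003). MCRIP1 was also lower, at -0.21 log2 (limma adjusted p = 0.023), a call that was lost without RfxCasR NT gRNA replicate 1 (0.0653), without shRNA NT replicate 2 (0.0952) and with median-centred values (0.0848). Over all genes 22.4% were called higher and 26.5% lower. Centring each library on its median turned that split round, to 3698 genes higher and 2860 lower in place of 3066 and 3621.

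Between the libraries labelled ANXA4 array and NT array, limma called 39 of 13679 genes (0.285%) and 0 of the 67 members. An unadjusted limma p under 0.05 was found for 7 of the 67 members and for 1474 of the 13679 genes. The authors' deposited table called 0 members and 8 genes (0.0367%). The members' differences, taken by the labels of the FPKM columns, ranged between -0.17 for SGPP1 and 0.21 for PSTPIP2, an actin-associated protein. The authors' deposited table runs the other way, with log2 fold changes of 0.20 for SGPP1 and -0.24 for PSTPIP2. Its sign was opposite to that of limma for 63 of the 67 members and for 93.2% of the 13657 genes in both, against 0 of the 67 members in each of the other 3 comparisons it covers. For ANXA4 itself the authors' deposited table gives -1.21 log2, against 1.00 from the FPKM columns. Which of the 2 sources names the arrays rightly was not tested, so no direction is drawn between the array groups. The array groups lay above the single-guide groups by a median of 0.08 log2 over the members and -0.02 over all genes; they also differ in depth, and the part of depth was not tested.

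Between shRNA B4GALNT1 and shRNA NT, the comparison that the rule used, limma called 44.4% of all genes, 18.4% higher and 26.0% lower, and all 67 members lower. The members' differences ran between -1.70 and -0.50 log2 with a median of -0.77, where the median over all genes was -0.04. With each library centred on its median, 3162 genes were called higher and 2775 lower, in place of 2523 and 3554. The authors' deposited table called 39.0% of its genes and all 67 members, with a median log2 fold change of -0.80.

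Genes related to the 3 markers were counted in the same comparison, from lists chosen with earlier results known. Over all genes tested, 18.4% were called higher and 26.0% lower, and the list counts were not tested against these shares. Of 11 genes, MCRIP1 itself and its partners and relatives, 3 rose and 3 fell. MCRIP1 is 1 of the 3 that fell, as the rule fixed. CTBP1, the corepressor that MCRIP1 binds, fell by 0.79 log2 (limma adjusted p = 2e-12), ATXN2L rose by 0.27 and MAPK3 (ERK1) rose by 0.18. CTBP1 is no member of the module. In NT gRNA minus shRNA NT, CTBP1, ATXN2L and MAPK3 differed by 0.07, -0.10 and 0.15 log2. Their differences in shRNA ANXA4 minus shRNA NT were -0.06, 0.06 and -0.34. Of 17 genes of the TMEM9 family, chloride transporters and the proton pump, 4 rose and 6 fell. The member TMEM9B is among those that fell, as the rule fixed. CLCN6, a late endosomal chloride-proton exchanger, fell by 0.58 log2, and the pump subunits ATP6V1B2 and ATP6V1E1 rose by 0.39 and 0.31. In the same order these genes differed by -0.44, 0.21 and 0.12 log2 in NT gRNA minus shRNA NT. In shRNA ANXA4 minus shRNA NT they differed by -0.44, 0.20 and -0.07. Of 12 genes with centromere-protein-B type domains, 2 rose and 6 fell, CENPBD1 among them at -1.14 log2 and JRK at -0.26. CENPBD1 and JRK differed by -0.31 and -0.03 log2 in NT gRNA minus shRNA NT. Their differences were -0.78 and -0.31 in shRNA ANXA4 minus shRNA NT. Of 13 genes of RNA interference, 2 rose and 4 fell. DICER1, which cuts hairpins, rose by 0.62 log2, AGO3 and TNRC6C fell by 0.55 and 0.48, and XPO5, the exporter of hairpin precursors, fell by 0.37. In NT gRNA minus shRNA NT, without the B4GALNT1 hairpin, the same genes differed by 0.24, -0.54, -0.49 and -0.16 log2. In shRNA ANXA4 minus shRNA NT they differed by 0.54, -0.28, -0.03 and 0.33. The part of the shared shRNA NT libraries in these differences was not tested. With the B4GALNT1 gRNA against the NT gRNA, 0 genes of these 4 lists were called, where 1 of all 13679 genes was called.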

How the data were processed

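Messenger RNA was measured in 21 libraries of HEK 293FT cells. Tools named in the submitters' processing notes are STAR, HOMER, FastQC, R 3.3.2 and DESeq2 1.14.1, with hg19 as build. The authors deposited FPKM values per gene with exon lengths and copy numbers, and, per the file headers, HOMER wrote them from exon reads. The authors also deposited comparison tables with a mean normalized signal, a log2 fold change and a p-value (adjusted) per gene, used here only as their own values.

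Values were taken as log2(FPKM + 1), which understates changes of low genes. Genes that reached 1 FPKM in 3 or more libraries were fitted with limma 3.58.1 (R 4.3.3) as 1 model over 7 groups with an intensity trend, and called where the p adjusted by Benjamini-Hochberg over all genes of a comparison was under 0.05. All 67 members passed this filter; 1 of them is counted among the 67 but not reported by itself here. The test was checked on simulated data. FPKM times exon length came out as whole reads, within 0.1, for 95.6% to 99.5% of values, which gave the depths. The deposited design text calls the replicates biological without naming cultures, so the p-values speak of the spread among these libraries, which may be technical. Same-numbered libraries did not deviate together, and no replicate term was used.

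The members and lists were chosen with earlier results of these data known. Named genes were the markers, the 25 largest gaps, genes next to the threshold, the smallest p-values per comparison, the largest spreads, the highest levels and called list genes. Genes named outside these were chosen after their values were seen. Transcripts came from GENCODE 29 (GRCh38), of which 66 of the 67 members were matched by RefSeq accession and the other by symbol, using the one nearest in length to the exon length. Alternatives were another pseudocount, filters and scalings, a gap of 1 log2, fewer groups in the model, no variance trend, a replicate block, voom on the recovered reads, and leaving out each library; those on transcripts and on shared copies were chosen after seeing the data.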

Additional observations from a re-analysis of the deposited data

Results flagged for a closer look

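NAA20 was picked out because its libraries with the B4GALNT1 gRNA all lay above those with the NT gRNA (0.10 log2), while with shRNA B4GALNT1 they all lay below shRNA NT. ISG20L2 had the same pattern, with 0.04 log2 for the gRNA. Higher gRNA values without overlap were found in 2 of the 67 members and in 5.34% of all genes. The difference between the 2 methods was not tested, and the hairpin's direction was fixed by the rule. The gRNA difference of NAA20 alone was not called by limma.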

How the results depend on the processing

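The rule took 64 to 68 genes when each library was left out in turn, 61 to 67 of them from the 67, and 58 to 92 under another pseudocount, floor or scaling, on recovered reads and without the array libraries. A gap of 1 log2 in place of 0.5 left 1 gene, MCRIP1. Leaving out each library gave 5309 to 5457 genes called for shRNA B4GALNT1 against shRNA NT, 6384 to 6532 for shRNA ANXA4 against shRNA NT, 5766 to 5899 for the NT gRNA against shRNA NT, 1 to 1 for the B4GALNT1 gRNA against the NT gRNA and 23 to 55 for the array comparison (main value 39; 23 without RfxCasR ANXA4 array replicate 2). Members called ranged between 26 and 30 for shRNA ANXA4, between 23 and 24 for the controls, and stayed at 0 in the B4GALNT1 gRNA and array comparisons. B4GALNT1 itself ranged between -0.46 and -0.39 log2 with its hairpin and between -1.18 and -0.99 with its guide. For the B4GALNT1 gRNA comparison, 2 genes were called without a filter, 3 without the array libraries and 2 with the replicate block, against 1. For the array comparison, voom on the recovered reads called 114 genes and a model of only the groups compared called 3, against 39; the cause was not tested. The replicate numbers did not pair the libraries (correlations of -0.146 to 0.0723), and with the replicate block 6099, 7111, 6707 and 34 genes were called in the other comparisons. No called result changed sign under the alternatives run. Medians over all genes, which lie near 0, did: median-centring gave 0.01 for shRNA B4GALNT1 against shRNA NT in place of -0.04, and 0.02 for the NT gRNA against shRNA NT in place of -0.02. Depth limits the precision of low members such as SMPD1, at 2.22 ± 0.387 FPKM with shRNA B4GALNT1 (SD, n = 3).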
